A study of Homo sapiens with 10 samples.

Results

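Kuramochi cells adapted to 320 µM olaparib were compared with persister cells that had been exposed to the same dose for 9 days. Kuramochi is a human line of high-grade serous ovarian cancer with a mutated BRCA2 gene, and olaparib inhibits the DNA repair enzymes PARP1 and PARP2. The comparison took every cell whose deposited name carried the tag of either condition, 3884 adapted and 1348 persister cells, or 5232 of the 13800 cells in the matrix. The adapted cells were a population described as drug resistant at 320 µM, for which no time in the drug is given. The persister cells were those left after the 9 days of acute exposure. The other cells were adapted at 10 µM (3415 cells), persister at 10 µM for 9 days (563 cells) or untreated (4590 cells), and they appear below only where they place a value. All conditions come from this 1 line with mutated BRCA2, and the sequence of the gene was not read in any of them. The conditions were labelled with hashtag antibodies and loaded together as 2 pools, so each condition was read as 2 sums of counts, 4 of the 10 sums here.

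PARP inhibitors trap PARP enzymes on damaged DNA, and cells without working homologous recombination cannot repair the breaks that follow when a replication fork meets them. Cells that outlive a short exposure often slow their division and return to growth when the drug is removed, which is what persister means. Adapted, or resistant, cells are able to grow in the drug, and their state can differ in lineage identity, metabolism and chromosome content as well as in repair.

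Counts are unique molecular identifiers (UMIs), 1 for each captured transcript. Adapted cells of pools 1 and 2 numbered 2038 and 1846 and gave sums of 18358406 and 19834403 UMIs, against 742 and 606 persister cells with sums of 8302810 and 8082859. Median UMIs per cell were 8211 and 9679.5 in adapted cells and 11154.5 and 13034.5 in persister cells. Median detected genes per cell were 2249 and 2486 in adapted cells and 3094 and 3427.5 in persister cells. The mitochondrial share of UMIs was 5.35% and 5.40% in adapted cells, against 9.17% and 9.39% in persister cells. No barcode was shared by the adapted and persister cells of a pool, and 2 of their barcodes occurred in both pools. Levels are shares of a sum's RNA, and less of a transcript per cell cannot be told apart from more of all others. The part of these depth and quality differences in the results was not tested. Levels below are CPM, the UMIs of a gene per 1000000 UMIs of its sum after scaling with trimmed mean of M-values factors, given for pools 1 and 2 in that order. A log2 change is adapted minus persister on the log2 scale, given with its standard error as ± where both are printed, and a gene counts as higher or lower when edgeR's quasi-likelihood test gave a Benjamini-Hochberg adjusted p under 0.05 over all 13330 genes tested. Whether each pool was made from its own culture is not stated in the labels, and the p-values therefore rest on a spread between 2 pools that could be purely technical.

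Adapted cells differed from persister cells in most of the transcriptome. Of 13330 genes, 4548 were higher (34.1%) and 4343 lower (32.6%), together 66.7%, and 1750 of the higher and 1707 of the lower genes differed by more than 1 on the log2 scale. The share of a list that passes the test has to be read against these percentages. The share of all tested genes whose adapted and persister sums lie apart is not given here. Where sums are said to lie apart below, that only describes the gene named. Scaling by library totals alone shifted the median over all genes to -0.25, against 0.03, and gave 3027 higher and 5995 lower genes. Changes are therefore relative to the trimmed mean. Under library totals the medians of the NF-kB, PARP and end joining, heat shock, cyclin, BMP, tRNA synthetase, cholesterol, chaperone, histone and ABC transporter lists turned from slightly positive to negative. Those lists are therefore described by counts and single genes without a median. Counts of higher and lower genes depend on the scaling as well, in these lists and in the others. The labels call the cells epithelial, and they carried the keratins KRT8 at 509 and 469.7 CPM and KRT18 at 780.1 and 688 CPM in adapted cells, against 857 and 827 CPM and 1345 and 1308 CPM in persister cells. CD3E had no UMI and PTPRC had 1 in all adapted and 2 in all persister cells. Of the adhesion proteins that define many epithelia, EPCAM had 20 and 28 UMIs in the adapted sums and 23 and 12 in the persister sums, and CDH1 had at most 2 in any of these sums.

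Of the 15 largest rises among genes with at least 50 CPM in the higher condition, all but MT2A averaged under 20 CPM in persister and in untreated cells. LAMA4, a laminin chain of basement membranes, stood at 98.9 and 92.7 CPM in adapted cells and 1.49 and 2.21 CPM in persister cells, a log2 change of 5.69 ± 0.13 (adjusted p = 8.88e-25). CD70, the ligand of the costimulatory receptor CD27, reached 252 and 250.1 CPM in adapted cells, against 5.85 and 8.15 CPM in persister cells and 3.4 and 3.9 CPM in untreated cells (5.17 ± 0.091). Both adapted sums lay far above all persister and untreated sums for these genes. ACTA2, smooth muscle actin, was at 135 and 119.7 CPM in adapted cells and 5.62 and 6.05 CPM in persister cells (4.45 ± 0.37). FN1, which encodes fibronectin, was at 209.6 and 211 CPM in adapted cells and 12.6 and 16.1 CPM in persister cells (3.87 ± 0.084). FHL1, a LIM domain protein of muscle and stromal cells, was at 221 and 224 CPM in adapted cells and 18.3 and 20.4 CPM in persister cells (3.52 ± 0.079). Among the rest, PDE1C, a phosphodiesterase, rose by 5.15 and KCNMA1, a potassium channel, by 4.57. FABP5, a fatty acid carrier, rose by 4.49, NDUFA4L2, a hypoxia-inducible mitochondrial protein, by 4.13, and SLCO4A1, an organic anion transporter, by 4.01. FOSL1, an AP-1 subunit, rose by 3.78, MRC2, a collagen receptor, by 3.32, TPBG, an oncofetal glycoprotein, by 3.13, and C16orf45 by 4.93.

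The 15 largest falls were taken under the same minimum and, like the rises, from called genes whose adapted and persister sums did not overlap. That the sums lie apart is therefore part of the choice. CP, the copper protein ceruloplasmin, stood at 4.7 and 3.54 CPM in adapted cells, against 191 and 167 CPM in persister cells and 39.8 and 36.2 CPM in untreated cells (-5.45 ± 0.20, adjusted p = 4.10e-07). MSLN, the surface antigen mesothelin, was at 2.19 and 2.5 CPM in adapted cells, against 86.6 and 91.7 CPM in persister cells and 88.3 and 83.2 CPM in untreated cells (-5.24 ± 0.10). SOX17, a transcription factor of the Müllerian epithelium, was at 4.32 and 7.03 CPM in adapted cells, against 182 and 223 CPM in persister cells and 289 and 360.0 CPM in untreated cells (-5.14 ± 0.26). The adapted sums of these 3 genes lay far below the sums of both other conditions. SPINT2, an inhibitor of membrane serine proteases, was at 11 and 10.05 CPM in adapted cells and 246 and 242 CPM in persister cells (-4.53 ± 0.063). DCDC2, a microtubule-binding protein of cilia, was at 9.77 and 10.5 CPM in adapted cells and 138 and 132 CPM in persister cells (-3.73 ± 0.069). SPP1, the secreted protein osteopontin, fell by 4.24, CLGN, a chaperone, by 4.16, and SELENOP, a secreted selenium carrier, by 3.85 on the log2 scale. A different order was seen for TPPP3, a tubulin polymerization protein of ciliated cells, which was high in persister cells alone. TPPP3 was at 5.95 and 5.92 CPM in adapted cells, 217 and 219 CPM in persister cells and 6.59 and 6.32 CPM in untreated cells (-5.19 ± 0.087).

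**Figure D1:**
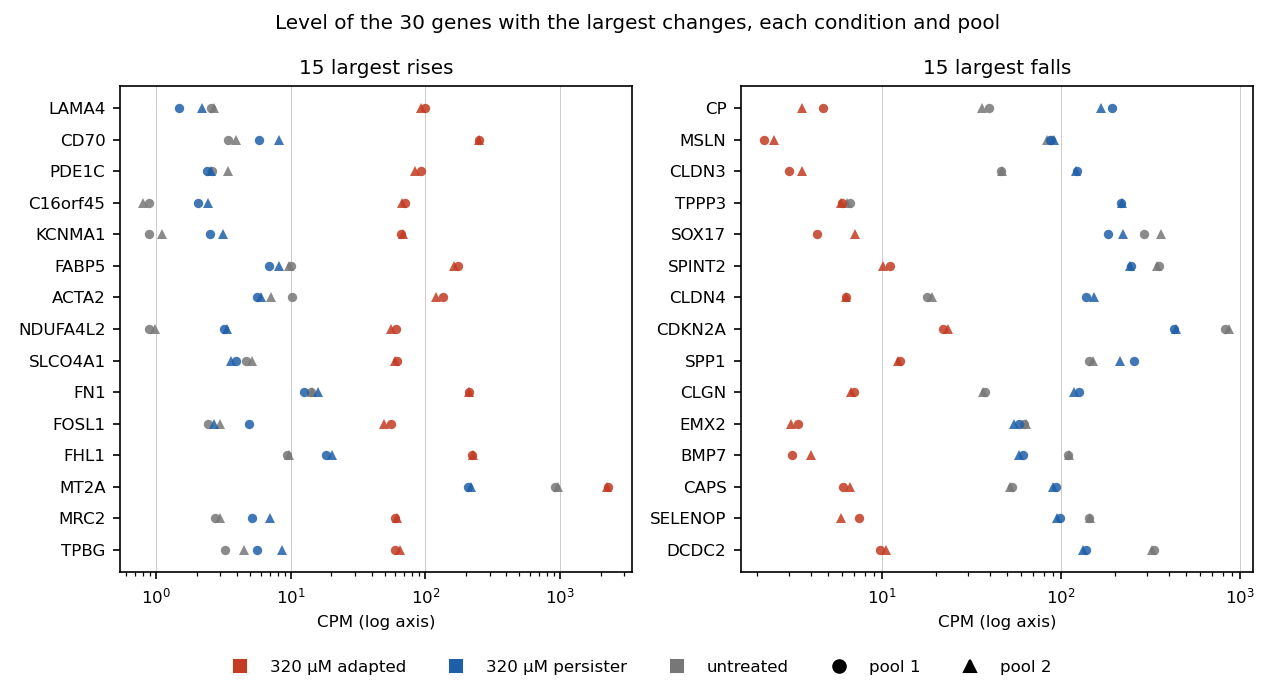
Level of the 15 genes with the largest rises (left) and the 15 with the largest falls (right) in CPM on a log axis, each symbol 1 sum of a condition and pool. The genes were chosen so that adapted and persister sums do not overlap. For most rows the untreated sums lie nearer to the persister sums.

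For the spread of these differences over cells, each cell was thinned to 3000 UMIs, and the UMIs of the 15 largest falls were added up per cell. The median was 0 in adapted cells of both pools, 7 in persister cells of both pools, and 7 and 8 in untreated cells. No UMI of these genes was found in 77.7% and 74.4% of adapted cells, against 0.413% and 0.512% of persister cells. Adapted cells at or above 3 UMIs, the 5th percentile of persister cells, numbered 14 of 2019 and 22 of 1830. The 14 largest rises other than MT2A had a median of 4 UMIs in adapted cells and 0 in persister cells of both pools, and 3.91% and 3.50% of adapted cells had none. At or below 1 UMI, the 95th percentile of persister cells, lay 13.6% and 12.9% of adapted cells. Single genes among the rises reached fewer cells, since at full depth LAMA4 had a UMI in 40.4% and 42.1% of adapted cells and ACTA2 in 28.0% and 29.4%, and the top 1% of adapted cells held 24.8% and 22.9% of the ACTA2 UMIs. These genes were chosen on the same cells, so the counts describe how many cells carry the change and are no test. No doublet caller was run, and free RNA of the pooled libraries was not estimated.

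**Figure D2:**
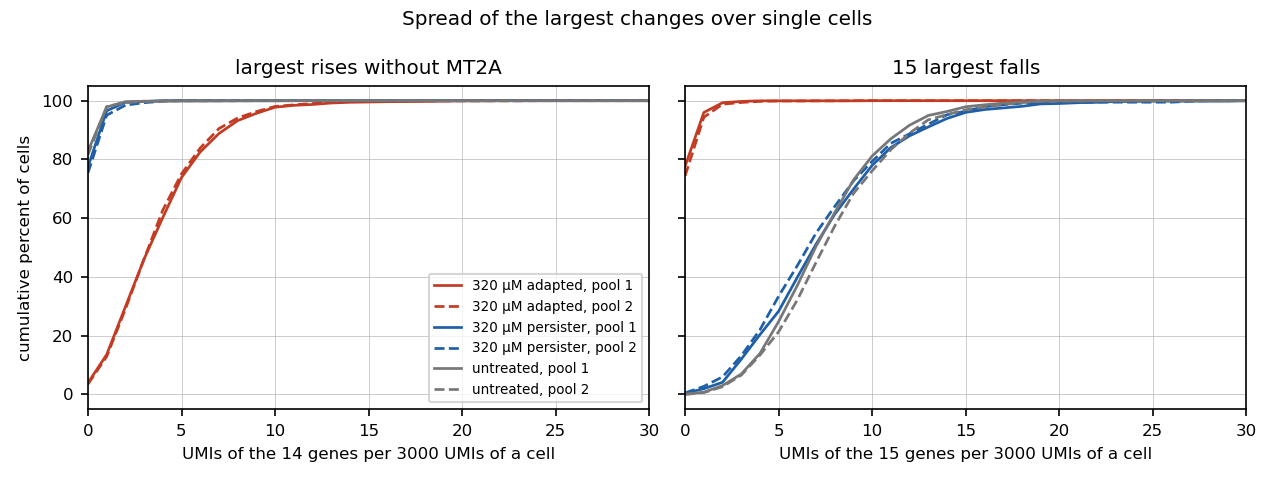
Cumulative percent of cells against the summed UMIs of the largest rises (left, 14 genes without MT2A) and falls (right, 15 genes) per 3000 UMIs of a cell, 1 line per condition and pool. Adapted cells start at 77.7% and 74.4% with 0 UMIs of the falling genes, and persister and untreated lines run together. On the left this holds with MT2A left out. With MT2A included, the untreated medians were 2 and 3 UMIs, against 1 in persister cells of both pools.

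The serous lineage and epithelial lists fell almost as a whole. Of 21 tested genes of the ovarian serous lineage 19 were lower and 1 higher, with a median log2 change of -2.56, or -2.46 with 1 gene at 0 in a condition set to its bound, against 0.03 for all genes. PAX8, the lineage factor of Müllerian epithelium, was at 64.1 and 62.8 CPM in adapted cells and 167 and 160.2 CPM in persister cells (-1.37 ± 0.062). WT1, a transcription factor kept in serous tumours, had 12 and 18 UMIs in the adapted sums and 41 and 46 in the much shallower persister sums (-2.46 ± 0.28). MECOM, which is often amplified in serous cancer, was at 2.13 and 2.96 CPM in adapted cells and 29.7 and 35.5 CPM in persister cells (-3.67 ± 0.14). EMX2, a homeobox factor of the developing reproductive tract, fell by 4.12 and BCAM, a laminin receptor, by 2.93. The exception was WFDC2, which encodes the serum marker HE4, at 346 and 342 CPM in adapted cells and 104 and 99 CPM in persister cells (1.76 ± 0.13). Of the serous genes named here it alone was higher in both adapted sums than in both persister sums.

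Of 27 epithelial junction and keratin genes 22 were lower and 1 was higher, with a median of -2.01, or -1.95 with the gene at 0 set to its bound. CLDN3, a tight junction claudin, was at 3.01 and 3.54 CPM in adapted cells and 123 and 121 CPM in persister cells (-5.21 ± 0.10). CLDN4 was at 6.26 and 6.27 CPM in adapted cells, against 137 and 153 CPM in persister cells and 17.9 and 18.9 CPM in untreated cells (-4.53 ± 0.093). Its persister level was therefore above the untreated one, and its adapted level below both. ELF3, an epithelial transcription factor, fell by 3.99, DSP, the desmosomal protein desmoplakin, by 1.82, and KRT19 by 3.25. KRT8 and KRT18, the keratins of simple epithelia, fell less, by 0.78 and 0.85, and remained among the abundant transcripts. Of 7 mesothelial markers 4 were lower and none higher, and they include MSLN, which is also on the serous list. UPK3B, a uroplakin of mesothelium, fell by 3.72.

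Mesenchymal and matrix genes moved the other way. Of 31 tested, 20 were higher and 1 lower, with a median of 0.98, or 0.87 with 2 genes at 0 set to their bounds. VIM, the filament protein vimentin, was at 2263 and 2170.2 CPM in adapted cells and 580.0 and 567 CPM in persister cells (1.95 ± 0.069). LOXL2, which cross-links collagen, was at 38.8 and 43.9 CPM in adapted cells and 1.72 and 2.68 CPM in persister cells (4.23 ± 0.20). Both genes were higher in each adapted sum than in any persister sum. TNC, a matrix glycoprotein, rose by 2.67, COL6A2 by 2.74, COL5A1 by 2.22 and COL6A1 by 1.6. SNAI1, a transcription factor of epithelial to mesenchymal transition, rose by 1.4, to 27 and 28 CPM in adapted cells against 10.3 and 10.6 CPM in persister cells. It was named after its value was seen, and the other factors of that transition are not described here. COL1A1 had fewer than 1 CPM on average in both conditions and did not pass the test (-0.08 ± 0.42). The fibroblast markers DCN and LUM were at 0 or 1 UMI in each of the 4 sums. PDGFRB had no UMI in the adapted sums and 0 and 3 in the persister sums. PDGFRA was higher, with 9 and 8 UMIs in the adapted sums and 0 and 1 in the persister sums. THY1, a surface glycoprotein also found on fibroblasts, rose by 1.78. In all, 3 of 11 fibroblast markers were higher and 3 lower, among them S100A4, which fell by 2.33. CD68, a lysosomal protein used as a macrophage marker, was at 17.4 and 18.4 CPM in adapted cells and 3.21 and 1.86 CPM in persister cells, and it was the only 1 of 6 tested leukocyte markers that passed.

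Targets of TGF-beta and of the coactivators YAP and TAZ counted 12 higher and 4 lower of 23, with a median of 0.47. TGFBI, a secreted TGF-beta-induced protein, was at 42.3 and 46.5 CPM in adapted cells and 0.573 and 1.05 CPM in persister cells (5.76 ± 0.17). AXL, a receptor tyrosine kinase, was at 45.3 and 46.4 CPM in adapted cells and 4.01 and 4.66 CPM in persister cells (3.4 ± 0.12). TGFBR2, a receptor of TGF-beta, went the other way and fell by 1.26. Contractile genes counted 12 higher and 2 lower of 17, with ACTN1, which cross-links actin, rising by 1.97 and MYH9, a non-muscle myosin, by 1.25. Of 23 integrin and laminin genes 11 were higher and 6 lower. LAMB1, a laminin chain, was at 127 and 120.0 CPM in adapted cells and 14.8 and 15.1 CPM in persister cells (3.04 ± 0.08), whereas ITGB8, an integrin chain, fell by 1.92. CD44, a hyaluronan receptor, was at 391 and 375 CPM in adapted cells, 171 and 172 CPM in persister cells and 16.6 and 16.6 CPM in untreated cells, and so was highest in adapted cells and already raised in persister cells.

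HOX genes, which record position along the body axis, changed in both directions, also within 1 cluster. HOXA3 had 86 and 95 UMIs in the adapted sums and none in either persister sum, where a count of 0 allows up to 3 UMIs, or 0.361 and 0.371 CPM on library totals. HOXA4 had 46 and 48 UMIs in the adapted sums and none in the persister sums. Further along the same cluster HOXA10 was lower, at 3.13 and 2.61 CPM in adapted cells and 21.1 and 20.02 CPM in persister cells (-2.84 ± 0.19). HOXD1 fell by 4.02 and HOXD8 by 2.71. Over 28 genes of the list 13 were higher and 9 lower.

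More adapted than persister cells were called in a dividing phase. At 3000 UMIs per cell, S or G2/M phase held 45.3% and 43.7% of adapted cells, against 23.1% and 24.7% of persister cells and 58.3% and 57.1% of untreated cells. From all UMIs of each cell they were 45.6% and 44.2% in adapted cells and 21.4% and 24.6% in persister cells. The G2/M share was 33.7% and 31.8% in adapted cells, against 13.1% and 13.8% in persister cells. The S phase share was 11.6% and 11.9% in adapted cells and 10.0% and 10.9% in persister cells, so nearly all of the difference lay in G2/M. Adapted and persister pools did not overlap in any of these shares. With 2 sums a side the exact permutation test (two-sided) returns 0.33 at best, and that was its p for each share.

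**Figure D3:**
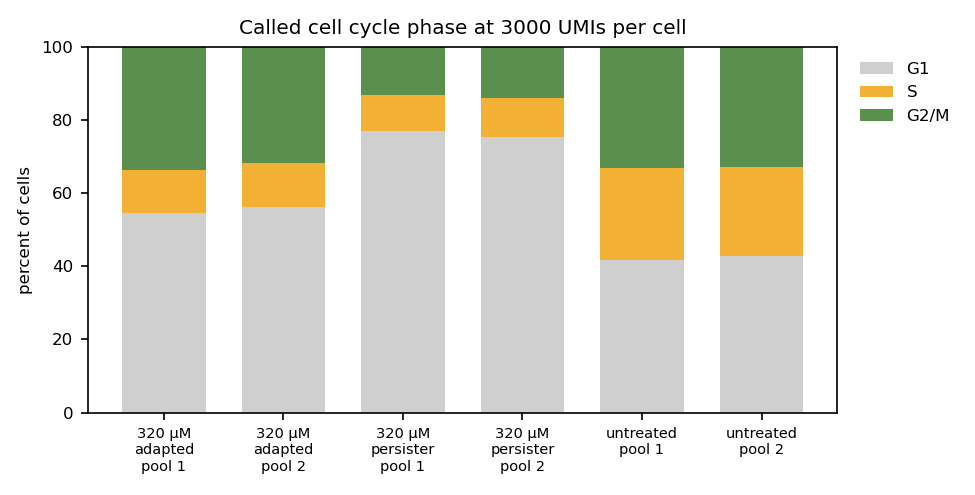
Percent of cells called in G1, S and G2/M phase for each condition and pool after thinning each cell to 3000 UMIs. The G2/M part is 33.7% and 31.8% in adapted cells and 13.1% and 13.8% in persister cells.

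Genes of mitosis were higher as well, with 48 of 54 G2/M genes higher and 2 lower and a median of 1.05. UBE2C, a ubiquitin carrier of the anaphase-promoting complex, was at 761 and 738 CPM in adapted cells, 118 and 115 CPM in persister cells and 303 and 313 CPM in untreated cells (2.68 ± 0.051). TOP2A, a topoisomerase of dividing cells, rose by 1.54, CDC20, an activator of the same complex, by 1.88, and MKI67, a protein of proliferating cells, by 1.12. In cells called G1 alone the G2/M list counted 24 higher and 6 lower of 54 with a median of 0.35, and in cells called S or G2/M it counted 32 higher and 10 lower with a median of 0.31. The phase calls use these genes themselves. By the shares above, the cells called S or G2/M were mostly G2/M cells in the adapted condition and more evenly split in the persister condition. That set therefore does not hold phase equal, and the part of this mix in its changes was not tested. Among 43 S phase genes 23 were higher and 8 lower with a median of 0.33, but in cells called S or G2/M the count was 4 higher and 23 lower with a median of -0.46. Of 6 S phase genes on chromosome 1, 5 were lower and none higher. The 37 elsewhere counted 23 higher and 3 lower with a median of 0.46. PRIM1, a DNA primase subunit, was at 32.4 and 30.7 CPM in adapted cells and 9.17 and 7.92 CPM in persister cells (1.88 ± 0.12), and RPA2, which coats single-stranded DNA, fell by 1.21. Of 20 promoters of the higher S phase genes 11 (55%) held an E2F site, read as TTTCGCGC, TTTGGCGC or TTTCCCGC on either strand, against 2 of 4 (50%) of the lower S phase genes and 4.51% of the promoters of tested genes, from the RefSeq promoters described next.

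Promoters of the G2/M genes that rose often held the letters TTTGAA, the core of the cell cycle homology region, which recruits the MuvB complexes that time mitotic genes. RefSeq promoters of GRCh38.p14, from 250 bases before to 50 after the start, were on hand for 40 of the 48 genes, and 29 of them (72.5%) held the letters on either strand. That compares with 9.47% of the 10474 promoters of tested genes and 15.4% of all 27305 promoters in the table. In the 50 bases just before the start the letters stood in 11 of the 40 (27.5%) and in 1.18% of the promoters of tested genes. A match is a description of the sequence and no evidence of a bound factor. Shown are the 100 bases before the start of 4 such genes with the match near the start, in capitals: CCNB2, a mitotic cyclin (log2 change 2.33), KIF11, a spindle motor (0.95), CKS2, a CDK subunit (1.23), and HMMR, a spindle protein (1.68). In cells called G1 the change of HMMR was -0.07, and that of KIF11 did not pass in cells called G1 (0.60) or in cells called S or G2/M (0.13). CCNB2 lies at chr15:59105046-59105145, KIF11 at chr10:92593030-92593129, CKS2 at chr9:89311095-89311194 and HMMR at chr5:163460532-163460631, all on the + strand, and KIF11 and CKS2 hold the letters in the reverse sense.
CCNB2: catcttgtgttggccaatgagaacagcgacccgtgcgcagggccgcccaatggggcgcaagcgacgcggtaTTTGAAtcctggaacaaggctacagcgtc
KIF11: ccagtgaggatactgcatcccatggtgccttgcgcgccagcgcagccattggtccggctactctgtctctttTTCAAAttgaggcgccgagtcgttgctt
CKS2: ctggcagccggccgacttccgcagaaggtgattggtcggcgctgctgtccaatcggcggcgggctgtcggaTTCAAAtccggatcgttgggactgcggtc
HMMR: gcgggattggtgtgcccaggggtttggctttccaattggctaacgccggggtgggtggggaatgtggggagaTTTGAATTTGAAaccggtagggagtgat

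Regulators of the G1 to S transition changed in both directions. CDKN2A, which encodes the CDK inhibitor p16 and the p53 activator ARF (GRCh38 chromosome 9, 21967753 to 21995301), stood at 21.9 and 23.3 CPM in adapted cells, 428 and 439 CPM in persister cells and 821 and 870.0 CPM in untreated cells (-4.26 ± 0.062, adjusted p = 1.06e-28). A CDKN2A UMI was found in 14.0% and 15.2% of adapted cells, against 95.4% and 95.9% of persister cells. The pools held no cell type known to lack the gene, so the share that free RNA gives was not measured. CDKN2B, the neighbouring inhibitor p15, had 9 and 8 UMIs in the adapted sums and 191 and 195 in the persister sums (-5.42 ± 0.21). MTAP, an enzyme of methionine salvage next to both, was at 2.07 and 3.08 CPM in adapted cells and 45.5 and 44 CPM in persister cells (-4.11 ± 0.12). Of the 16 tested genes between 20 and 29 Mb on chromosome 9, 12 were lower and none higher with a median of -1.11, a stretch chosen after its values were seen. The log2 changes of the other 9 lower genes ran from -2.55 (MOB3B) to -0.52 (DMRTA1), the 4 others at -1.03 to -0.07 did not pass, and these 3 had the lowest values of the stretch. At 10 µM the log2 changes of CDKN2A, CDKN2B and MTAP were -1.59, -3.56 and -1.52.

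CCND1, the cyclin D1 that partners CDK4 and CDK6, was at 39.6 and 43.8 CPM in adapted cells and 215 and 205 CPM in persister cells (-2.33 ± 0.056). CDKN2C, another inhibitor of the same kinases, was at 16.8 and 19.9 CPM in adapted cells and 1.15 and 1.75 CPM in persister cells (3.66 ± 0.26). RB1, their substrate, fell by 0.98. It lies on chromosome 13, whose tested genes had a median of -0.47, and the part of position in its change was not tested. CDKN1A, the p53-induced inhibitor p21, rose by 0.31 ± 0.078. Its change was 0.16 without persister pool 1, and with library totals it missed the threshold (0.02). In cells called S or G2/M CDKN1A fell by 0.41. Over the cyclin and CDK list 10 of 23 genes were higher and 8 lower. Targets of p53 counted 9 higher and 15 lower of 28 with a median of -0.34. BTG2, an antiproliferative factor, fell by 3.06, PLK3, a stress kinase, by 2.24, and BAX, which opens mitochondria in apoptosis, rose by 0.81. All 5 members on chromosome 1, with BTG2 and PLK3 among them, were lower, and of the 23 elsewhere 9 were higher and 10 lower.

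PARP1, the enzyme olaparib mainly acts on, was at 125 and 124 CPM in adapted cells, 218 and 216 CPM in persister cells and 323 and 314 CPM in untreated cells (-0.8 ± 0.047, adjusted p = 2.96e-15). PARP1 lies on chromosome 1, where 913 of 1373 tested genes were lower with a median of -0.71. The part of position in its change was not tested. PARP2 fell by 0.38 ± 0.10, to 16.9 and 16.1 CPM in adapted cells against 21.4 and 21.5 CPM in persister cells, and its change of -0.34 in cells called G1 did not pass. BRCA2, mutated in this line, was at 19.3 and 20.4 CPM in adapted cells and 9.86 and 10.9 CPM in persister cells (0.93 ± 0.13), close to the untreated 18.4 and 17.5 CPM. In cells called S or G2/M alone its change was 0.16 and did not pass. Whether the transcript carried the mutation or a changed reading frame cannot be read from these counts. Homologous recombination and Fanconi anemia genes counted 18 higher and 2 lower of 33 with a median of 0.38. FANCD2, which marks stalled forks, rose by 1.55, BRCA1 by 0.75 and RAD51C, a recombinase paralogue, by 0.64. In cells called S or G2/M the list counted 2 higher and 10 lower with a median of -0.05, and neither BRCA1 (0.01) nor RAD51C (0.24) passed. That set holds fewer S phase cells for each G2/M cell in the adapted condition, so it does not hold phase equal. In cells called G1 it counted 13 higher and 4 lower of 32 with a median of 0.42.

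The PARP, end joining and resection list counted 14 higher and 8 lower of 28. Its 3 members on chromosome 1 counted 1 higher and 2 lower, and the 25 elsewhere 13 higher and 6 lower. XRCC5 and XRCC6, the subunits of the Ku complex that starts end joining, moved apart. XRCC5 was at 143 and 144 CPM in adapted cells and 309.9 and 285 CPM in persister cells (-1.05 ± 0.053), and XRCC6 was at 229.5 and 237 CPM in adapted cells and 147 and 141 CPM in persister cells (0.7 ± 0.055). XRCC5 lies on chromosome 2, whose tested genes had a median of -0.35, and the part of position in its change was not tested. XRCC1, a scaffold of single-strand break repair, fell by 0.89. Replication stress checkpoint genes counted 14 higher and 6 lower of 24 with a median of 0.51, or -0.10 in cells called S or G2/M. WEE1, the kinase that restrains CDK1, rose by 0.89 and CDC25B, the phosphatase that opposes it, by 1.34, whereas HLTF, a fork remodeller, fell by 0.75. ABCB1, the efflux pump that exports olaparib, had 2 and 2 UMIs in the adapted sums and none in the persister and untreated sums and was not tested. Of 23 ABC transporter genes that were tested, 6 were higher and 10 lower.

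Enzymes of glycolysis and genes induced by hypoxia rose in 27 of 30 cases and fell in 1, with a median of 0.87. GAPDH, a central enzyme of glycolysis, was at 9670.2 and 9653 CPM in adapted cells, 2433 and 2315 CPM in persister cells and 3314 and 3297 CPM in untreated cells (2.02 ± 0.058). LDHA, which makes lactate, was at 945 and 940.2 CPM in adapted cells and 214 and 222 CPM in persister cells (2.11 ± 0.083). Each adapted sum lay above each persister sum for both enzymes. PFKP, a phosphofructokinase, rose by 2.11, PGK1 by 0.86, BNIP3, a mitophagy receptor induced by hypoxia, by 1.96, and ADM, the peptide adrenomedullin, by 1.81. The list counted 28 higher and none lower in cells called G1, and 25 higher and 1 lower in cells called S or G2/M. Promoters were on hand for 24 of the 27 higher genes, and 11 (45.8%) held ACGTG, the core of the hypoxia response element, on either strand, against 26.3% of the promoters of tested genes. At 10 µM the median of the same list was -0.84.

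Respiratory chain genes were more often lower than higher. Of 13 mitochondrially encoded genes 12 were lower and 1 higher with a median of -0.52, and MT-CYB, a subunit of complex III, fell by 1.12. The mitochondrial share of all UMIs, given above, counts these same genes and is no separate result. Of 59 nuclear genes of oxidative phosphorylation 33 were lower and 13 higher with a median of -0.19. NDUFA4, a subunit of complex IV, was at 559 and 542 CPM in adapted cells and 1183 and 1180.4 CPM in persister cells (-1.1 ± 0.039), while its paralogue NDUFA4L2 was at 60.4 and 55.5 CPM in adapted cells and 3.21 and 3.38 CPM in persister cells. Fatty acid oxidation enzymes counted 9 higher and 8 lower of 29. Among 18 genes of fatty acid synthesis 9 were higher and 3 lower, led by SCD, a desaturase, at 160.2 and 165 CPM in adapted cells and 23.7 and 28.2 CPM in persister cells (2.65 ± 0.10). Cholesterol synthesis genes counted 9 higher and 7 lower of 24, with TM7SF2, a sterol reductase, falling by 2.17.

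Ribosomal protein genes were higher in 70 of 74 cases and lower in 1, with a median of 0.91. RPL14, of the large subunit, was at 5103 and 5131 CPM in adapted cells and 1577 and 1557 CPM in persister cells (1.71 ± 0.041). Ribosomal protein genes made up 36.8% and 36.9% of UMIs in adapted cells, against 25.8% and 25.7% in persister cells and 25.1% and 25.3% in untreated cells. MYC targets and ribosome biogenesis genes counted 20 higher and 2 lower of 30 with a median of 0.54. NPM1, a nucleolar chaperone, rose by 0.96, RRP9, a processing factor of ribosomal RNA, by 1.68, and GNL3, the nucleolar protein nucleostemin, by 1.29.

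Metallothioneins, small proteins that bind zinc and copper, include MT2A, 1 of the 15 largest rises. MT2A was at 2291 and 2228 CPM in adapted cells, 209 and 219 CPM in persister cells and 913 and 967 CPM in untreated cells (3.4 ± 0.043, adjusted p = 1.23e-30). MT1X was at 277 and 272 CPM in adapted cells, 46.8 and 58.8 CPM in persister cells and 194 and 207 CPM in untreated cells (2.38 ± 0.085). Adapted sums of both genes were the highest and persister sums the lowest. Of 6 tested members 3 were higher and 1 lower, and reads of such near-identical genes can be shared out differently by the counting. The metal response element, through which the zinc sensor MTF1 acts, has a core read here as TGCNCNC on either strand. It occurred 7 times in the 250 bases before the start of MT2A and 4 times before MT1X, and the mean over the 300 bases of all promoters of tested genes was 1.09, with 63.8% holding at least 1. The sequences show these matches in capitals, for MT2A at chr16:56608334-56608583 and for MT1X at chr16:56682220-56682469, both on the + strand.
MT2A: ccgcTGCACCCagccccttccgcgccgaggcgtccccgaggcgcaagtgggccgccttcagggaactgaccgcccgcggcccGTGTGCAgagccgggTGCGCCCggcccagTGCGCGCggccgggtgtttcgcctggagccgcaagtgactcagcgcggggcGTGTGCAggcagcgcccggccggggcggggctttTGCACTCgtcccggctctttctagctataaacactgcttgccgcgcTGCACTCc
MT1X: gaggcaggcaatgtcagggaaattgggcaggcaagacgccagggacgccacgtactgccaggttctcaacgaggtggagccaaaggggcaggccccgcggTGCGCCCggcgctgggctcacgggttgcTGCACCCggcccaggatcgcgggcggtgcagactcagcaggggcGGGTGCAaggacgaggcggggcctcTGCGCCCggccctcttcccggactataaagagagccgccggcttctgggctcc

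In the integrated stress response the factor ATF4 raises genes of amino acid supply. Of 31 genes of that response 17 were lower and 7 higher in adapted cells, with a median of -0.37. All 4 members on chromosome 1, SESN2 among them, were lower. The 27 elsewhere counted 7 higher and 13 lower with a median of -0.27. Against untreated cells the median of the list was 1.11 in adapted and 1.17 in persister cells. NUPR1, a stress-induced chromatin protein, was at 8.52 and 8.48 CPM in adapted cells, 84.6 and 79.3 CPM in persister cells and 4.51 and 3.9 CPM in untreated cells (-3.27 ± 0.10). SESN2, an inhibitor of mTORC1, was at 17.9 and 15.5 CPM in adapted cells, 62.5 and 58.8 CPM in persister cells and 15.1 and 14.4 CPM in untreated cells (-1.86 ± 0.085). Both were high in persister cells alone. CHAC1, which degrades glutathione, fell by 1.21 and ASNS, asparagine synthetase, by 0.51. DDIT4, another inhibitor of mTORC1, rose by 1.36, PPP1R15A, which reverses the response, by 1.13, and ATF4 itself by 0.52. In cells called G1 the list counted 4 higher and 17 lower with a median of -0.42, whereas in cells called S or G2/M it counted 13 higher and 7 lower with a median of 0.30. ASNS was among those that turned, to 0.44, and CHAC1 did not pass there (-0.12).

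TGATGNAA, the composite site of ATF4 and C/EBP factors, stood in 4 of the 16 promoters on hand for the lower genes (25%), in none of the 7 of the higher genes, and in 1.68% of the promoters of tested genes. Shown are the 250 bases before the start of CHAC1 (chr15:40953221-40953470, + strand), which holds it in the reverse sense, and ASNS (chr7:97872409-97872658, - strand), with the match in capitals.
CHAC1: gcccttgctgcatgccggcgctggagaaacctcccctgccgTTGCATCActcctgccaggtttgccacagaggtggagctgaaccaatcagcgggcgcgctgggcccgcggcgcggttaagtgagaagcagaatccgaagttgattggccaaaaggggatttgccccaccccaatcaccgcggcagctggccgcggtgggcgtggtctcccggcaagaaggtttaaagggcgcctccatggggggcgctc
ASNS: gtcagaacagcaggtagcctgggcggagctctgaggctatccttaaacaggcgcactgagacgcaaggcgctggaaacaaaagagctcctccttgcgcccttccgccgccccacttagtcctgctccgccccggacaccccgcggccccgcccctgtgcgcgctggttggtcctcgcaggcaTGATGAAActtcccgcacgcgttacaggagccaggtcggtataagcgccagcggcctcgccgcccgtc

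Serine and one-carbon enzymes changed in both directions. PHGDH, the first enzyme of serine synthesis, was at 58.6 and 64.3 CPM in adapted cells and 267 and 249 CPM in persister cells (-2.07 ± 0.057). PSAT1, the next enzyme, fell by 1.42, and SHMT2, which passes serine carbon to folate in mitochondria, rose by 0.98. In total 9 of 17 were higher and 7 lower. Both members on chromosome 1, PHGDH among them, were lower, and the other 15 counted 9 higher and 5 lower with a median of 0.58. Aminoacyl-tRNA synthetases counted 9 higher and 8 lower of 20, and all 3 on chromosome 1 were lower. These 3 were SARS, with a log2 change of -1.56, EPRS (-1.15) and YARS (-1.0). The 17 elsewhere counted 9 higher and 5 lower. Chaperones of the endoplasmic reticulum counted 12 higher and 6 lower of 25, with HSP90B1 rising by 1.13. Heat shock genes counted 11 higher and 6 lower of 20, and HSPB1, a small heat shock protein, fell by 1.46.

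Antioxidant genes split as well. Among 26 targets of NRF2, the factor that answers oxidants, 9 were higher and 10 lower. NQO1, a quinone reductase, was at 373 and 357 CPM in adapted cells and 127 and 113 CPM in persister cells (1.6 ± 0.058). FTL, a ferritin chain, was at 15424 and 15367 CPM in adapted cells, 7798 and 7377 CPM in persister cells and 4041 and 4092 CPM in untreated cells (1.02 ± 0.034). HMOX1, heme oxygenase, rose by 1.77, whereas PRDX1, a peroxidase on chromosome 1, fell by 0.86. Glutathione transferases counted 5 higher and 7 lower of 12. All 4 on chromosome 1 were lower, and MGST1, a membrane-bound member on chromosome 12, fell by 2.07.

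Immune genes changed gene by gene. Of 50 interferon-stimulated genes 11 were higher and 17 lower with a median of -0.06. BST2, the antiviral protein tetherin, was at 17 and 15.6 CPM in adapted cells and 172 and 178 CPM in persister cells (-3.42 ± 0.06), and IFI27 fell by 2.22. The interferon-stimulated response element, searched on either strand, stood in 10 of 13 promoters of the lower and 5 of 8 of the higher genes, against 2.81% of the promoters of tested genes. IFITM3, which blocks viral entry, was at 219 and 227 CPM in adapted cells and 73.7 and 80.1 CPM in persister cells (1.54 ± 0.051), and its neighbour IFITM2 rose by 1.6. MHC class I presentation counted 13 higher and 3 lower of 21 with a median of 0.56. HLA-B was at 354 and 348 CPM in adapted cells and 187 and 200.5 CPM in persister cells (0.86 ± 0.046), and PSMB9, an immunoproteasome subunit, rose by 2.11. Genes of NF-kB and secreted inflammatory factors counted 12 higher and 6 lower of 30. Immediate early genes counted 19 higher and 4 lower of 27 with a median of 0.80, among them EGR1, which rose by 1.06, DUSP6, a feedback phosphatase of ERK, by 1.86, and KLF2 by 4.16.

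Apoptosis regulators counted 6 higher and 13 lower of 26. BID, which links death receptors to mitochondria, rose by 2.08, BIRC5, the mitotic protein survivin, by 1.85, and CYCS, cytochrome c, fell by 0.98. Autophagy and lysosome genes counted 8 higher and 15 lower of 38. Among 26 histone genes 12 were higher and 10 lower: the replicative HIST1H4C rose by 1.66, while H1F0, a linker histone of resting cells, fell by 1.59 and HIST1H2BD by 2.35. ALDH1A2, which makes retinoic acid, fell by 4.69 in a stem cell and aldehyde dehydrogenase list of 10 higher and 8 lower of 21. BMP7, a secreted ligand, fell by 4.06, and ID2, a target of that pathway, by 1.0, in a list of 8 higher and 9 lower of 19.

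**Figure D4:**
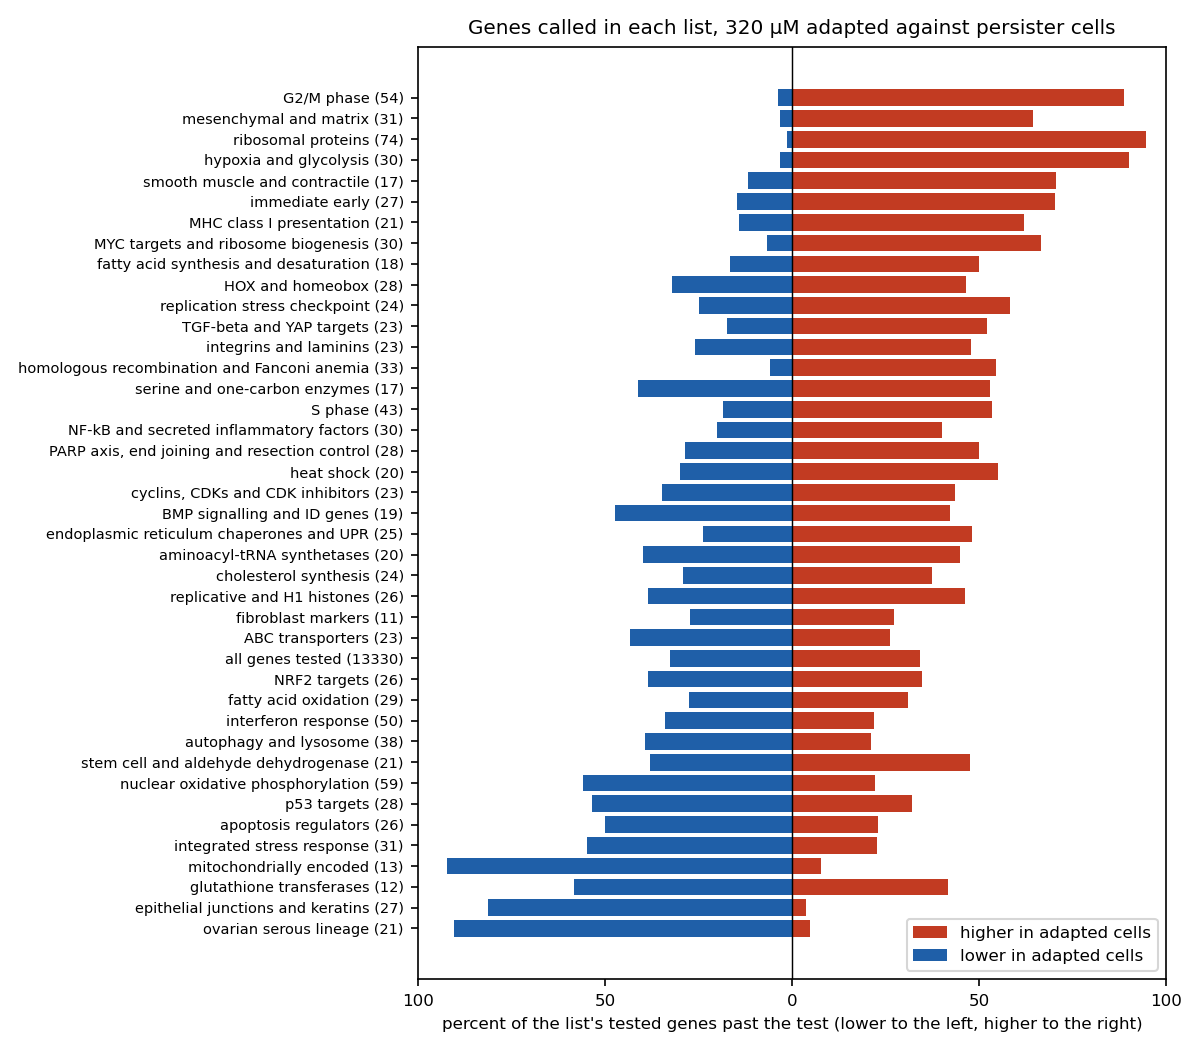
Percent of each list's tested genes (number in parentheses) that were lower (blue, left) or higher (red, right) in adapted than in persister cells, ordered by the list's median log2 change, for lists of at least 10 tested genes. The row of all genes tested shows 32.6% lower and 34.1% higher.

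Changes also followed the position of genes on chromosomes. Of the tested genes, 13268 matched 1 gene of GENCODE 29 on GRCh38. On chromosome 1, 913 of 1373 genes were lower and 115 higher with a median of -0.71, against 3410 lower and 4417 higher of 11895 genes elsewhere with a median of 0.09. The median of chromosome 1 was -0.74 for adapted against untreated cells and -0.04 for persister against untreated cells. It was negative in every stretch of 20 Mb of that chromosome with at least 5 tested genes, between -1.20 at 100 to 120 Mb and -0.11 in the last one. Chromosomes 13 and 2 followed with medians of -0.47 and -0.35, and the highest medians were those of chromosomes 20 (0.46) and 19 (0.41). Persister cells differed from untreated cells by at most 0.11 in the median of any chromosome. The number of chromosome copies was not measured, and its part in these values was not tested. Members on chromosome 1 were lower in several lists above, and the part of position in those lists was not tested.

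**Figure D5:**
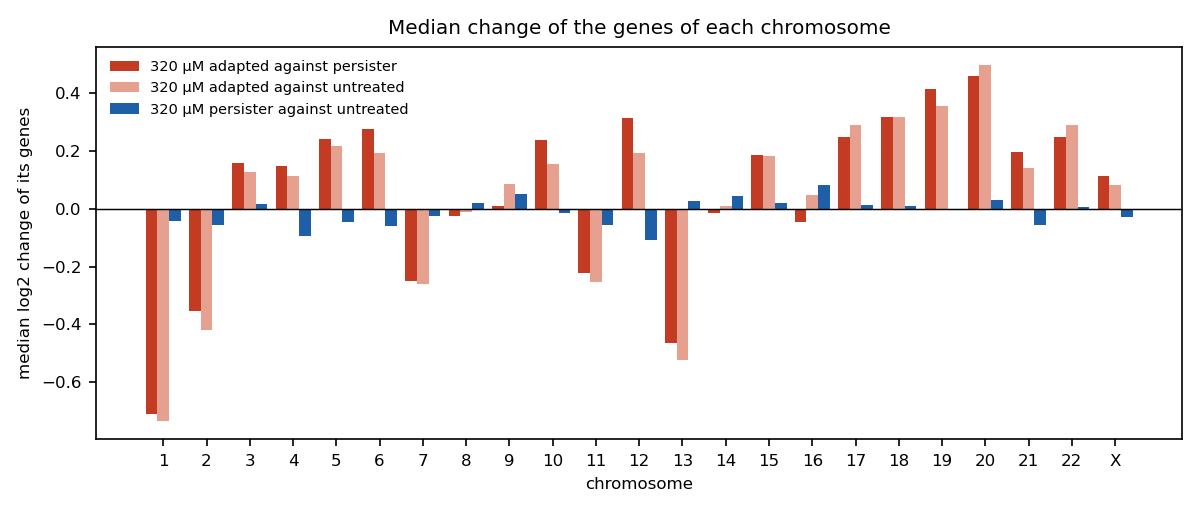
Median log2 change of the tested genes of each chromosome for adapted against persister, adapted against untreated and persister against untreated cells, all at 320 µM. Chromosome 1 stands at -0.71, -0.74 and -0.04 in that order. The comparisons share sums, so their likeness is no separate result.

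Among windows of 25 neighbouring tested genes the median log2 change ran from -1.16 at the 1st percentile to 1.39 at the 99th. The lowest window lay at chr1:203178931-205457091 from CHI3L1 to LEMD1, with 20 genes lower, none higher and a median of -1.61. The next 3 lay on chromosome 1 as well, and the fifth at chr2:216632828-219209651. The highest by fitted values lay at chr5:140638740-141512981, which holds the clustered protocadherins, adhesion proteins of neurons, with 20 genes higher, 1 lower and a median of 2.57, or 2.18 with 3 genes at 0 set to their bounds, level with 2.19 for the chromosome 19 window described next. Among windows of 50 genes a chromosome 19 window was highest at 1.83, and the one with the protocadherins had rank 4 at 1.16. All 13 tested protocadherin beta genes were higher. Their UMIs together came to 768 and 805 in the adapted sums, 18 and 21 in the persister sums and 73 and 72 in the untreated sums. Scaled, that is 48.1 and 46.7 CPM in adapted cells, against 2.06 and 2.44 CPM in persister cells. Of 11 protocadherin gamma genes 8 were higher and none lower, and these share exons, so single members are uncertain.

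The next highest windows lay on the long arm of chromosome 19, where zinc finger genes of the KRAB type are clustered. At chr19:52904417-54194536, 24 of 25 genes were higher with a median of 2.23, and at chr19:51571298-52890375 all 25 were, with a median of 1.77. Of 222 ZNF genes on chromosome 19, 141 were higher and 16 lower with a median of 0.89. On other chromosomes 72 of 235 ZNF genes were higher and 45 lower with a median of 0.16, and the other genes of chromosome 19 had a median of 0.24. Together the chromosome 19 ZNF genes came to 2413 and 2445 CPM in adapted cells, against 1434 and 1430 CPM in persister cells and 1414 and 1419 CPM in untreated cells. ZNF581 was at 232 and 223 CPM in adapted cells and 51 and 42.8 CPM in persister cells (2.28 ± 0.064), and ZNF160 at 37 and 37.6 CPM in adapted cells and 6.76 and 6.99 CPM in persister cells (2.44 ± 0.14). These families were picked after the windows were seen, and their counts are a description.

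The change between adapted and persister cells depended on dose. At 10 µM 60.7% of genes differed between adapted and persister cells, and the difference of the changes at 320 and 10 µM passed the test for 49.3% of genes, 23.4% positive and 25.9% negative. The serous lineage list had a median of -2.56 at 320 µM and 0.10 at 10 µM. For EMX2 the log2 change was -4.12 at 320 µM and 0.2 at 10 µM, a difference of -4.32 (adjusted p = 1.02e-20, edgeR). CD70 had 5.17 at 320 µM and 0.06 at 10 µM, a difference of 5.1, and FN1 had 3.87 and -0.2. Medians of immune lists differed by several log2 units: the interferon list had a median of -0.06 at 320 µM and -4.27 at 10 µM, and the MHC class I list had 0.56 and -2.29. Glycolysis and hypoxia genes had a median difference of 1.87 between the doses. LAMA4 was higher at both doses, by 5.69 at 320 µM and 3.95 at 10 µM, as was ACTA2 by 4.45 and 4.5. Ribosomal protein genes had medians of 0.91 at 320 µM and 1.35 at 10 µM. The protocadherin beta genes together came to 46.6 and 46.1 CPM in 10 µM adapted cells, against 1.80 and 1.92 CPM in 10 µM persister cells. At 10 µM the medians of chromosomes 1 and 13 were -0.49 and -0.39, and that of the chromosome 19 ZNF genes was 0.44. Chromosome 2 had a median of -0.02 at 10 µM, and chromosome 7 had 0.18, against -0.25 at 320 µM. The 10 µM persister sums were the shallowest, with 3532281 and 3745019 UMIs.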

How the data were processed

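Hashtagged Kuramochi cells were sequenced as droplet libraries with 10x Genomics 3' chemistry version 3.1, per the labels' protocols. The matrix deposited by the authors holds raw UMI counts per gene and cell, not normalized. The submitters' processing notes name Cell Ranger 3.1, Seurat and the builds hg38 and GRCh38 without giving them a role, and the sources used here do not give the settings for filtering cells or assigning hashtags. Each library mixes all conditions, so condition and pool were read from the cell names. All 13800 cells entered, no doublet caller was run, and 0 columns stayed without a match. Also read were a deposited table of 7762 cells listed as G1, whose UMI counts and gene numbers by the authors differ from the matrix totals for most cells and were not used, and the pools' barcode lists.

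Counts were summed per condition and pool (10 sums). Genes kept by filterByExpr (13330) were tested with edgeR 4.0.16 (quasi-likelihood, R 4.3.3) in 1 fit over the 10 sums with 5 residual degrees of freedom, a biological coefficient of variation of 4.39% and scaling factors of 0.868 to 1.11, and p-values were adjusted by Benjamini-Hochberg over all genes. The fit was tested on simulated data. Sums of 1 pool share a library, per the labels. Pool differences of the conditions correlated at 0.338 to 0.612 over 2730 genes. Phases were called with scanpy 1.11.5 on cells thinned to 3000 UMIs, which left out 35 adapted and 35 persister cells. Named genes are the 15 largest rises and falls with at least 50 CPM in the higher condition and no overlap of sums, the up to 4 members of a list that had the smallest p among those reaching 20 CPM, PARP1, PARP2, BRCA2, ABCB1, MKI67 and CDKN1A, and the 5 largest dose differences each way. VIM, LOXL2, TNC, SNAI1, GAPDH, LDHA, PGK1, KRT8, KRT18, KRT19, PAX8, WT1, MECOM, WFDC2, BCAM, DSP, UPK3B, CD68, MTAP, HOXA3, HOXA4, HOXD1, CDKN2C, RB1, CCNB2, KIF11, CKS2, HMMR, CHAC1, ASNS, ATF4, HMOX1, IFITM2, KLF2, ZNF581, ZNF160, MOB3B and DMRTA1 were added after their values were seen. Members and lists were chosen with earlier results of these data known. The motifs TGCNCNC and ACGTG, the split by chromosome 1, the ZNF, protocadherin and chromosome 9 groups and the sums per cell were chosen after seeing the data. Positions are those of GENCODE 29 and promoters those of RefSeq (GRCh38.p14). Reads of near-identical genes (metallothioneins, protocadherins, histones, ribosomal proteins, GAPDH) may be shared out by the counting in ways the counts do not show, and how strand was used is not stated. Floors cover counting error only.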

Additional observations from a re-analysis of the deposited data

Results flagged for a closer look

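For the genes below the change between adapted and persister cells differed between 320 and 10 µM in edgeR's test of that difference, and the 5 largest differences each way and genes that changed by over 1 on the log2 scale in opposite directions at the doses are given. The difference is the log2 change at 320 µM minus that at 10 µM. No cause was tested.

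Acute phase and interferon genes had the largest positive differences, and these came from the 10 µM persister cells. CXCL10, a chemokine induced by interferon, averaged 3.59 CPM in 320 µM adapted and 2.95 CPM in 320 µM persister cells, and 2.37 CPM in 10 µM adapted against 785 CPM in 10 µM persister cells (difference 8.66). The same held for SAA2 (difference 9.43) and SAA1 (9.41), which encode serum amyloid A, RSAD2 (9.03), the antiviral protein viperin, and HP (7.84), haptoglobin. PSMB9 averaged 46.6 CPM in 320 µM adapted and 10.7 CPM in 320 µM persister cells, and 34.0 CPM in 10 µM adapted against 401 CPM in 10 µM persister cells (difference 5.67). TNFAIP2, a gene induced by tumour necrosis factor, differed by 4.40, IFITM3 by 2.72 and HMOX1 by 4.34.

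MT2A averaged 2260 CPM in 320 µM adapted and 214 CPM in 320 µM persister cells, and 1554 CPM in 10 µM adapted against 3134 CPM in 10 µM persister cells (difference 4.41). BNIP3 and ADM differed by 3.26 and 3.03, and BID by 3.27. COL1A1 and BGN had negative differences. COL1A1 averaged 0.879 CPM in 320 µM adapted and 0.921 CPM in 320 µM persister cells, and 92.2 CPM in 10 µM adapted against 2.49 CPM in 10 µM persister cells (difference -5.29). BGN, the proteoglycan biglycan, differed by -5.03.

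TPPP3 averaged 5.94 CPM in 320 µM adapted and 218 CPM in 320 µM persister cells, and 14.1 CPM in 10 µM adapted against 9.10 CPM in 10 µM persister cells (difference -5.83). MECOM averaged 2.55 CPM in 320 µM adapted and 32.6 CPM in 320 µM persister cells, and 49.6 CPM in 10 µM adapted against 22.6 CPM in 10 µM persister cells (difference -4.80). SLIT3, a guidance ligand, differed by -4.97, PEG10, an imprinted gene of retroviral origin, by -4.87, TM7SF2 by -4.52 and ID2 by -2.56.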

How the results depend on the processing

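The count of genes that differed between adapted and persister cells at 320 µM, 8891, was 7787 with DESeq2, 9022 with library totals (33.6% of them higher, against 51.2%), 9072 with no filter, 7562 in cells called G1, 7032 in cells called S or G2/M, 7552 in the deposited G1 table, 6232 with cells thinned, 8691 with the 4 sums alone and 7871 to 8224 with 1 sum left out, where the lone sum of a condition is taken to vary like the others. With the pool as a replicate block it was 9215, with 8878 of the 8891 calls kept, and none of the named genes lost its call. The dose difference, 6577 genes, fell to 3969 in cells called S or G2/M and 3714 with cells thinned. The other alternatives gave 5527 to 6902. The gap in dividing cells, 20.6 points, was 22.9 at 5000 UMIs, 21.9 without thinning and 19.8 to 21.4 with 1 sum left out. With windows of 50 genes the lowest and highest medians were -1.34 and 1.83. Of the named genes, these turned direction: with library totals IER3 (-0.017), in cells called S or G2/M CDKN1A (-0.41), ASNS (0.44), RSAD2 (-1.76), HP (-0.49) and BGN (0.15), in cells called G1 HMMR (-0.066) and COL1A1 (0.41), in the G1 table HMMR (-0.070) and COL1A1 (0.24), and with cells thinned CXCL10 (-0.18) and COL1A1 (0.87). Leaving out 1 sum put CXCL10 between -0.0066 and 0.64 and COL1A1 between -0.54 and 0.57, both near 1 CPM or a few CPM here and past no test. The cause of these turns was not tested. Examples that missed the threshold with an unchanged direction were KIF11 (0.6 in cells called G1, 0.13 in cells called S or G2/M) and CHAC1 (-0.12 in cells called S or G2/M). MT1F (0.16) did so without persister pool 2. With dose differences counted, 12 named changes did so in cells called S or G2/M and 5 in the G1 table. With cells thinned 3 did so, in cells called G1 2, and with library totals 2. The shallow 10 µM persister sums limit the dose comparison.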
